A study of Mus musculus with 6 samples.

Results

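The R-spondins *Rspo1*, *Rspo2*, *Rspo3* and *Rspo4*, their receptors *Lgr4*, *Lgr5* and *Lgr6*, and the ubiquitin ligases *Znrf3* and *Rnf43* were followed in whole lungs of mouse embryos at E11.5 (days *post coitus*). These 9 genes were found by symbol among the 23420 genes of the deposited table. All 9 passed the filter on low values used for the test (a normalized count of 1 or more in 3 or more libraries), as did 17168 of the 23420 genes. Control lungs were Raptorf/+; ShhCre/+, and mutant lungs were Raptorf/f; ShhCre/+. Raptor, encoded by *Rptor*, is the subunit that defines the growth-promoting kinase complex mTORC1. Cre made from the *Shh* locus acts in the lung epithelium, so mesenchyme, vessels and other tissues keep *Rptor* in the mutants. By the genotype given, the controls, which also carry 1 copy of the Cre, lack 1 of the 2 *Rptor* copies in the epithelium. A supplementary figure of the paper labels the controls of this stage ShhCre/+, without naming their *Rptor* alleles. Each library was made from a pool of 3 or 4 lungs of the same genotype, with 3 pools a group. The study collected these lungs to ask how epithelial mTORC1 bears on lung branching.

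Wnt proteins signal through Frizzled and LRP receptors to stabilise beta-catenin. ZNRF3 and RNF43 are membrane ubiquitin ligases that remove Frizzled from the cell surface and so hold Wnt signaling down. R-spondins are secreted proteins that bind these ligases, in many settings together with an LGR receptor, and take them off the membrane, which leaves more Frizzled in place. In the developing lung *Rspo2* is expressed by mesenchyme, and mice without it have small lungs and limb defects. *Znrf3*, *Rnf43* and *Lgr5* are themselves known targets of Wnt signaling in many tissues.

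Members of a family share stretches of sequence, which matters for reads that could come from more than 1 of them. The longest run of identical coding bases was 20 between *Znrf3* and *Rnf43*, 15 to 18 between pairs of LGR genes, and 10 to 14 between pairs of R-spondin genes, in the GENCODE M21 annotation of GRCm38. The 3 pairs of sequences below show these runs, because they mark how little exact sequence the relatives share. Each is coding sequence from 5′ to 3′ with the shared run in capitals and 15 flanking bases on each side in lower case. The *Znrf3* stretch lies in 1 exon at chr11:5281740-5281789 on the minus strand, and the *Rnf43* stretch in 1 exon at chr11:87731542-87731591 on the plus strand. The *Lgr5* stretch joins 2 exons between positions 115520644 and 115587295 of chromosome 10, and that of *Lgr6* joins 2 exons between 135075265 and 135104942 of chromosome 1, both on the minus strand. The *Rspo2* stretch joins 2 exons between 43075953 and 43078129 of chromosome 15, and that of *Rspo3* joins 2 exons between 29500123 and 29504617 of chromosome 10, both on the minus strand.
Znrf3: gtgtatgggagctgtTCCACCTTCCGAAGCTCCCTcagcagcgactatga
Rnf43: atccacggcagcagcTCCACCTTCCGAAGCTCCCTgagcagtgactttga
Lgr5: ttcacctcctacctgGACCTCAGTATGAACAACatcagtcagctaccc
Lgr6: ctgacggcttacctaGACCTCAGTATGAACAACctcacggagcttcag
Rspo2: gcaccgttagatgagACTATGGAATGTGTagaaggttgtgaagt
Rspo3: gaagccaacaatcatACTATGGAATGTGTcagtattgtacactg

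A read that covers more than such a run differs between the relatives by at least 1 base. The read length is not given in the sources used here. The coding parts hold 265 codons in *Rspo1*, 243 in *Rspo2*, 277 in *Rspo3*, 228 in *Rspo4*, 951 in *Lgr4*, 907 in *Lgr5*, 967 in *Lgr6*, 913 in *Znrf3* and 784 in *Rnf43*, without the stop codon.

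Reads assigned to genes ranged from 20197642 to 21276090 per library. *Rptor*, the targeted gene, had normalized counts (reads scaled by the size factor of each library) of 2126, 2193 and 2279 in the controls and 2023, 2137 and 2148 in the mutants. Its log2 difference, mutant minus control, was -0.06 ± 0.05 (standard error), with overlapping groups (limma adjusted p = 0.584). This count covers the whole gene in whole lungs, most of whose cell types keep it, and positions shared with the antisense gene Rptoros, so it is a weak check of the labels. All 12 genes of an epithelium marker list were lower in the mutant pools by their mean log2 value, with a summed normalized count of 15110 to 18932 in control and 11674 to 12749 in mutant pools. All 12 genes of a mesenchyme list were higher, with sums of 96381 to 102395 in control and 117186 to 124841 in mutant pools. The 3 collagen genes of the list, *Col1a1*, *Col1a2* and *Col3a1*, made up most of these sums and of their rise. Without overlap, 6 mesenchyme genes were higher and 10 epithelium genes were lower, where 9.77% and 10.5% of all genes tested were. *Epcam* and *Nkx2-1* of the epithelium list overlapped between the groups. The median log2 difference was 0.16 in the mesenchyme list. The part of this shift in the results on the 9 genes was not tested beyond the scalings given below, and in bulk samples fewer cells of a type and less RNA per cell cannot be told apart.

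The 9 genes were chosen by a rule that used their normalized counts in these control and mutant pools, so those values are given as a description and without a test. Standard errors of log2 differences are those of the limma fit across all genes. That fit draws the variance of each gene toward that of genes at a like level, so they are not the spread of these pools alone. Higher values in every mutant pool than in every control pool were found for *Rspo2* and *Rspo3*, and lower values in every mutant pool for *Znrf3* and *Rnf43*. Of all 17168 genes tested, 9.77% were higher and 10.5% lower without overlap, 20.2% together. The fit across all genes put 1 of the 9 genes, *Rspo2*, under an adjusted p of 0.05 by limma, beside 0.501% of all genes tested (0.186% higher, 0.315% lower). By edgeR and by DESeq2 on recovered reads the count was also 1, beside 0.539% and 1.93% of the genes these tools tested. It was 0 by limma without trend, with no filter, without control pool 1 and without mutant pool 3, and 2 without control pool 3. Since the rule used the same counts, these numbers describe the choice of genes and are not evidence for any of them. The median log2 difference was 0.01 over the 9 genes.

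**Figure D1:**
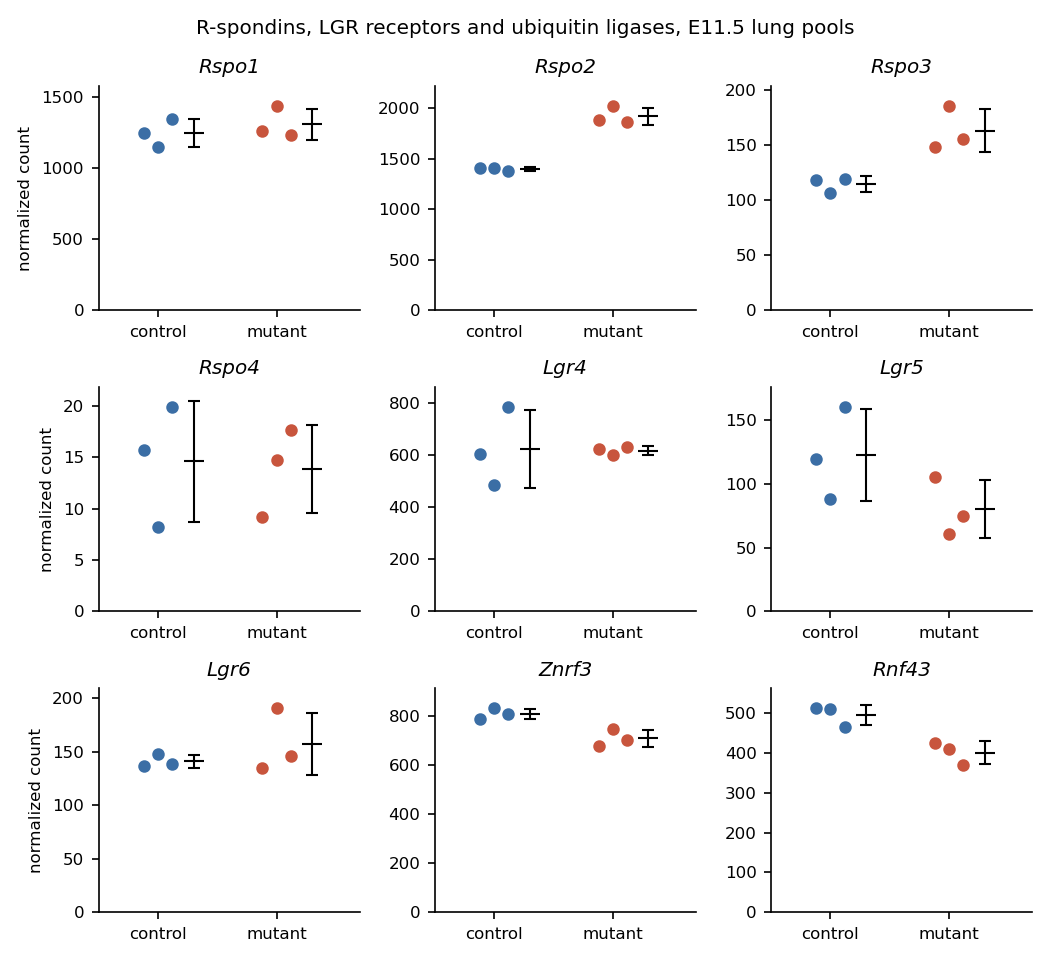
Normalized counts of the 9 genes in each library, with 1 panel per gene and axes from 0. Points are pools of 3 or 4 lungs, blue for control and red for mutant, and bars show the mean ± SD (n = 3). The groups are apart for *Rspo2* (from 1376 to 1407 in control and from 1856 to 2015 in mutant pools), *Rspo3*, *Znrf3* and *Rnf43*, and overlap for the other 5 genes.

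Among the ligands, *Rspo2* (chr15:43020794-43170826, minus strand) had normalized counts of 1407, 1406 and 1376 in the control pools numbered 1, 2 and 3, and of 1879, 2015 and 1856 in the mutant pools of those numbers. The control pools lay close together and 449.5 normalized counts separated the highest of them from the lowest mutant pool. The means were 1396 ± 17.7 (SD, n = 3) and 1917 ± 85.8 (SD, n = 3), 37.3% more in the mutant pools. On the scale of log2(normalized count + 1), which understates changes of genes with low counts, the difference was 0.46 with a standard error of 0.05. Leaving out each pool in turn moved it between 0.42 and 0.48. The control pools varied by 1.27% of their mean, less than the 2.68% that counting reads alone would give at this depth, and the mutant pools by 4.48%, against 2.28% from counting.

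*Rspo3*, an R-spondin needed for blood vessels of the placenta, was present at a lower level and had a difference of like size. Its normalized counts were 119, 106 and 119 in the controls and 148, 185 and 156 in the mutants, with no overlap. The means were 115 ± 7.31 (SD, n = 3) and 163 ± 19.6 (SD, n = 3), 42.1% more in the mutant pools, and the log2 difference was 0.50 with a standard error of 0.13. It stayed between 0.40 and 0.56 when 1 pool was left out. Mutant pool 2 was the highest pool for both *Rspo2* and *Rspo3*. The ratio of *Rspo2* to *Rspo3* within a pool, which no scaling of a library can change, was 3.61 ± 0.10 (SD, n = 3) on the log2 scale in the controls and 3.56 ± 0.11 (SD, n = 3) in the mutants. The gene *Rspo3* (chr10:29452416-29535867, minus strand) shares exon positions with an antisense gene, Gm48159, which is not used here. The strand setting of the counting is not given in the sources used here, so reads of these genes cannot be told apart.

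*Rspo1*, known for its part in ovary formation, did not follow *Rspo2*. It had normalized counts of 1249, 1149 and 1342 in the controls and of 1258, 1433 and 1236 in mutant pools, and the groups overlapped. The log2 difference was 0.07 with a standard error of 0.07, and without mutant pool 2 it was 0.0029. The log2 ratio of *Rspo2* to *Rspo1* was 0.17, 0.29 and 0.04 in the controls and 0.58, 0.49 and 0.59 in the mutants. *Rspo1* thus varied less between the groups than within them, and its ratio to *Rspo2* separated the groups.

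*Rspo4*, which is needed for nail growth, was barely detected. Its values rest on 16, 8 and 20 reads in the controls and 9, 15 and 18 reads in the mutants, or 14.6 ± 5.88 and 13.9 ± 4.30 normalized counts (SD, n = 3). A difference between the groups was not detectable at this depth, at which the log2 difference of -0.04 had a standard error of 0.38.

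The receptor genes did not separate the groups. *Lgr4* (chr2:109917647-110014257, plus strand), the LGR gene with the broadest expression in the body, had normalized counts of 602, 485 and 781 in the controls and 620, 597 and 630 in the mutants. All mutant pools fell inside the control range, of which pool 2 was the lowest and pool 3 the highest. The SD was 24% of the mean in the control pools and 2.75% in the mutant pools, where counting reads alone would give 4.01% and 4.02%. The log2 difference of 0.01 (standard error 0.14) went to -0.16 without control pool 2 and to 0.19 without control pool 3.

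*Lgr5* (chr10:115450311-115587780, minus strand), a marker of stem cells in the intestine, had normalized counts of 120, 87.8 and 160 in the controls and 105, 60.8 and 74.6 in the mutants. Mutant pools 2 and 3 lay below all control pools, and mutant pool 1 lay between control pools 2 and 1. The means of 123 ± 36.2 and 80.2 ± 22.8 (SD, n = 3) differed by -0.60 on the log2 scale, the largest difference in size among the 9 genes, with the second largest standard error, 0.245, after *Rspo4*. On that scale the SD was 0.429 among control and 0.395 among mutant pools. The difference ranged from -0.82 without control pool 2 to -0.39 without control pool 3. Control pools 2 and 3 were thus the extremes for both *Lgr4* and *Lgr5*. Within a pool, the log2 ratio of *Lgr5* to *Lgr4* was -2.33, -2.46 and -2.29 in the controls and -2.56, -3.30 and -3.08 in the mutants, which do not overlap. *Lgr5* overlaps the gene A930009A15Rik on the opposite strand over 12463 bases, with no exon of 1 over an exon of the other.

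*Lgr6*, which marks stem cells of the hair follicle, had normalized counts of 137, 148 and 138 in the controls and 135, 190 and 146 in the mutants. Mutant pool 2 was above all others and mutant pool 1 was below all others. The log2 difference was 0.14 with a standard error of 0.14, and it was -0.0028 without mutant pool 2.

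Both ligase genes had lower values in the mutant pools, though not when libraries were scaled to epithelium markers, as given below. *Znrf3* (chr11:5276324-5444847, minus strand) had normalized counts of 787, 831 and 807 in the controls and 677, 747 and 702 in the mutants. The highest mutant pool was 39.7 normalized counts below the lowest control pool. The means were 808 ± 21.9 and 709 ± 35.4 (SD, n = 3), a difference of -12.3%, and the log2 difference was -0.19 with a standard error of 0.06. It stayed between -0.23 and -0.16 when a pool was left out.

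*Rnf43* (chr11:87662722-87735539, plus strand) had normalized counts of 511, 508 and 465 in the controls and 424, 409 and 368 in the mutants. A gap of 41.1 normalized counts lay between the groups. The means were 495 ± 25.6 and 400.3 ± 28.9 (SD, n = 3), a difference of -19.1%, or -0.31 on the log2 scale with a standard error of 0.08, which stayed between -0.35 and -0.25 when a pool was left out. The log2 ratio of *Rnf43* to *Znrf3* was -0.71 ± 0.09 in control and -0.83 ± 0.13 in mutant pools (SD, n = 3), so the 2 ligase genes kept about the same proportion to each other within the spread of the pools. An intronic gene on the same strand, 1110028F11Rik, lies within *Rnf43* over 3936 bases without touching its exons.

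Ratios of ligand to ligase within a pool differed between the groups. The log2 ratio of *Rspo2* to *Znrf3* was 0.84, 0.76 and 0.77 in the controls and 1.47, 1.43 and 1.40 in the mutants. For *Rspo2* to *Rnf43* it was 1.46, 1.47 and 1.56 in the controls and 2.15, 2.30 and 2.33 in the mutants. Control and mutant pools did not overlap in either ratio, and neither ratio depends on how a library is scaled. Since *Rspo2* was higher and both ligase genes were lower in every mutant pool, this separation follows from the values already given. It is not a further result. *Rspo2* is a mesenchymal gene in the lung and the marker lists of epithelium and mesenchyme moved in opposite directions in these pools, which was not tested as a source of the change in these ratios.

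Levels of different genes were compared as normalized counts per kb of annotated exon, the union of the exons of all transcripts. In control pools *Rspo1* had the highest level of the 9 genes, at 643 ± 49.8 per kb, followed by *Rspo2* at 273 ± 3.46 per kb (SD, n = 3). *Lgr4* at 106 ± 25.4 and *Znrf3* at 102 ± 2.78 per kb did not differ beyond their spread. Below them came *Rnf43* at 75.4 ± 3.91, *Rspo3* at 37.2 ± 2.37 and *Lgr6* at 20.6 ± 0.883 per kb. *Lgr5* at 11.9 ± 3.53 and *Rspo4* at 6.17 ± 2.48 per kb were the lowest, and their spreads overlapped. In mutant pools the order of the means was the same, with *Rspo1* at 675 ± 55.9 and *Rspo2* at 375 ± 16.8 per kb. There the spread of *Rnf43* (61.0 ± 4.41 per kb) met that of *Rspo3* (52.8 ± 6.33 per kb), while *Lgr4* (105 ± 2.88 per kb) stood above *Znrf3* (89.8 ± 4.48 per kb). These overlaps depend on the length used. Per kb of the longest transcript, *Lgr5* (4793 bases, against 10264 in the union) stands clear of *Rspo4* in control pools. By that length *Rnf43* (4310 against 6558 bases) also stands clear of *Rspo3* in mutant pools.

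Summed over the family, R-spondin levels were 965, 906 and 1008 per kb in the controls and 1068, 1200 and 1059 per kb in the mutants. *Rspo2* made up 28.5%, 30.4% and 26.7% of this sum in the controls and 34.4%, 32.8% and 34.3% in the mutants. The share of *Rspo1* was 67.0% ± 1.61 in control and 60.9% ± 0.713 in mutant pools, and that of *Rspo3* was 3.87% ± 0.0997 and 4.75% ± 0.256 (SD, n = 3). *Rspo1* therefore remained the main R-spondin transcript per kb in every pool, by a smaller margin in the mutants.

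LGR levels summed to 134, 112 and 169 per kb in the controls and to 135, 135 and 136 per kb in the mutants. *Lgr4* made up 76.1% ± 2.79 of the LGR sum in control and 77.3% ± 1.99 in mutant pools, *Lgr6* made up 15.3% ± 3.63 and 16.9% ± 3.18, and *Lgr5* made up 8.53% ± 0.839 and 5.77% ± 1.64 (SD, n = 3). *Lgr5* has the longest exon union of the 9 genes (10264 bases, with a longest transcript of 4793). Per kb of the longest transcript its mean share was 14.9% in control and 10.3% in mutant pools. The mean share of *Lgr6* was 12.9% and 14.6%. Control pool 2 (*Lgr5* 13.5%, *Lgr6* 16.2%) and mutant pool 1 (13.3% and 12.3%) had the order opposite to their group means. The order of the mean shares of these 2 genes in control pools therefore depends on the length that is used.

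The summed ligase level was 178, 183 and 173 per kb in the controls and 150, 157 and 145 per kb in the mutants (percent of *Znrf3* 57.6 ± 1.45 and 59.5 ± 2.23, SD, n = 3). Set against this sum, R-spondins were higher by a log2 ratio of 2.44, 2.31 and 2.54 in the controls and of 2.83, 2.93 and 2.87 in the mutants. As the summed R-spondin level was higher and the summed ligase level lower in every mutant pool, the gap in this ratio follows from those sums. The log2 ratio of LGR genes to ligase genes was -0.41, -0.70 and -0.04 in the controls and -0.15, -0.22 and -0.10 in the mutants, which lay inside the control range.

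**Figure D2:**
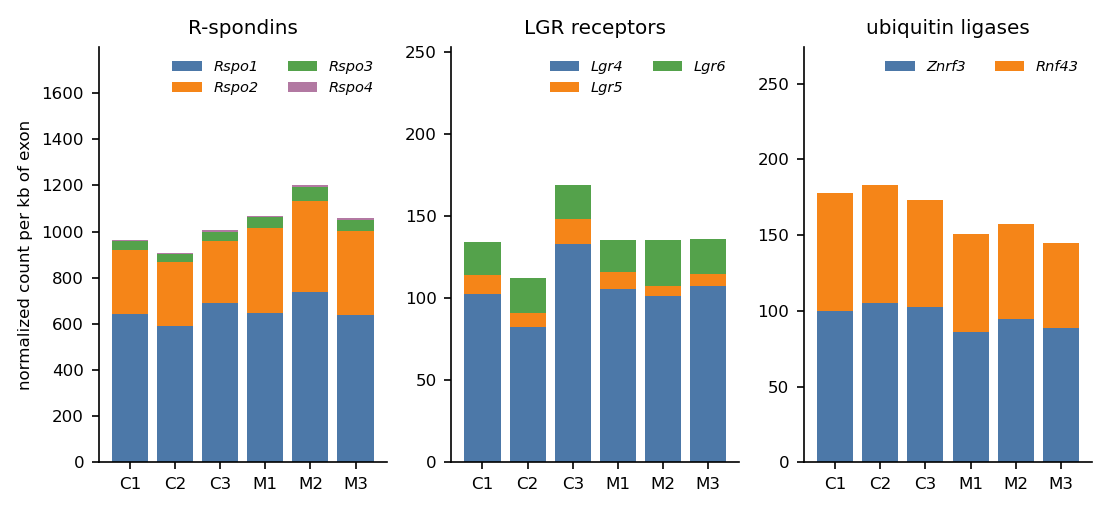
Stacked bars of normalized counts per kb of exon in control pools (C1 to C3) and mutant pools (M1 to M3), with a panel and a vertical scale from 0 for each family. *Rspo1* and *Rspo2* make up nearly all of the R-spondin bars, *Lgr4* is the largest part of each LGR bar, and the ligase bars are 173 to 183 per kb in control and 145 to 157 per kb in mutant pools.

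Since the epithelium and mesenchyme markers shifted between the groups, the differences were also computed with each library scaled to the mean log2 value of the 12 epithelium or of the 12 mesenchyme markers. The first scaling shifted the log2 difference of every gene by 0.476 and the second by -0.191. *Rspo2* stayed above 0 under both, at 0.93 and 0.26, as did *Rspo3* at 0.97 and 0.31, and *Lgr5* stayed below 0, at -0.12 and -0.79. *Znrf3* and *Rnf43* changed sign, to 0.29 and 0.17, when scaled to epithelium markers, and were at -0.38 and -0.50 when scaled to mesenchyme markers. *Rspo1*, *Lgr4* and *Lgr6* were at 0.55, 0.49 and 0.62 by the first scaling and at -0.12, -0.18 and -0.05 by the second, and *Rspo4* at 0.44 and -0.23. The ligase genes were thus lower relative to the median gene of these lungs and to mesenchyme markers, and higher relative to epithelium markers, whose median log2 difference was -0.47.

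**Figure D3:**
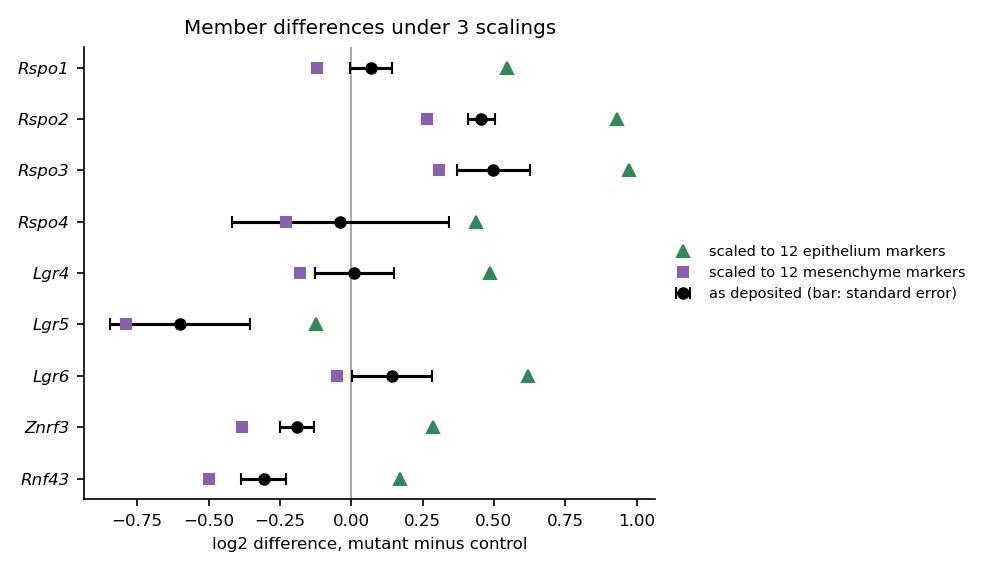
Log2 differences of the 9 genes, mutant minus control, from the deposited normalized counts (black circles, bars are the standard error), after scaling to the epithelium markers (green triangles) and after scaling to the mesenchyme markers (purple squares). *Rspo2* and *Rspo3* lie right of 0 and *Lgr5* lies left of 0 under all 3, while *Znrf3* and *Rnf43* lie left of 0 as deposited and by mesenchyme markers and right of 0 by epithelium markers.

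The other genes of Wnt signaling, and a list of 8 lung bud signals, were examined in fixed lists by their adjusted p over all genes tested. These lists were chosen with earlier results of these data known. Of 91 listed genes tested, the 8 bud signals among them, 1 was higher (the bud signal *Fgf10*) and 1 was lower (*Ccnd1*) at an adjusted p under 0.05. At an unadjusted p under 0.05, 6 were higher and 17 were lower, where 6.67% and 6.89% of all genes tested were. The bud signals gave 1 of these 6 and 2 of these 17. The median log2 difference was -0.03 over the 91 genes and -0.0021 over all genes.

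Of 13 target genes of beta-catenin, 11 had lower and 2 had higher values in mutants, with a median log2 difference of -0.14. Of all 17168 genes tested, 8673 had lower values. All 13 target genes were higher when scaled to epithelium markers. *Ccnd1*, which encodes the cell cycle protein cyclin D1, passed the threshold. It fell from 7852 ± 304 to 6582 ± 218 normalized counts (SD, n = 3; log2 difference -0.25, limma adjusted p = 0.0398). Over the alternatives its adjusted p ranged from 0.000191 with DESeq2 to 0.252 without mutant pool 3, and the alternatives in which it missed the threshold included those without control pool 1 or any 1 of the mutant pools, without trend, with no filter and when scaled to epithelium markers, where its log2 difference was 0.22 (limma adjusted p = 0.074). *Axin2*, a feedback inhibitor widely used as a readout of Wnt signaling, was at 1313 ± 44.5 and 1188 ± 53.2 (log2 difference -0.14, limma adjusted p = 0.262). *Lef1*, a partner of beta-catenin on DNA, was at 1934 ± 175 and 1688 ± 47.2 (-0.19, limma adjusted p = 0.213), and *Sp5*, a transcription factor, was at 450 ± 53.1 and 351 ± 44.4 (-0.36, limma adjusted p = 0.204). The groups did not overlap for these 3 genes, but they did not pass the threshold. With *Ccnd1* and *Tnfrsf19*, they were the 5 of the list with lower values at an unadjusted p under 0.05, and 0 were higher at that p. Of all genes tested, 6.89% were lower at that p, and 10.5% were lower without overlap. Without overlap in the other direction was *Ascl2*, at low normalized counts of 6.88, 7.23 and 7.95 in the controls and 10.2, 13.7 and 13.7 in the mutants. Its log2 difference of 0.69 was the largest in size of the list (limma unadjusted p = 0.051, adjusted p = 0.370). *Tcf7*, *Nkd1* and *Apcdd1* overlapped between the groups, with log2 differences of -0.15, -0.08 and -0.15 (limma adjusted p = 0.536, 0.577 and 0.481). Leaving out a pool moved *Tcf7* from -0.045 without control pool 2 to -0.29 without control pool 3, where it passed the threshold (limma adjusted p = 0.0118), as *Sp5* did (0.0331). *Nkd1* moved from -0.027 without control pool 2 to -0.11 without control pool 3, and *Apcdd1* from -0.085 without control pool 3 to -0.22 without mutant pool 1, neither of them past the threshold.

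None of the 14 Wnt ligand genes tested of 19 listed passed the threshold (0 by edgeR and 1, *Wnt7b*, by DESeq2). At an unadjusted p under 0.05, 2 were higher (*Wnt2b* and *Wnt11*) and 2 were lower (*Wnt4* and *Wnt7b*), and limma called *Wnt4* without control pool 2. *Wnt7b*, a ligand made by lung epithelium, was at 3757 ± 421 in control and 2795 ± 214 in mutant pools (SD, n = 3; log2 difference -0.42, limma adjusted p = 0.0604, and 0.000553 without control pool 3), and its log2 difference was 0.053 when scaled to the epithelium markers. *Wnt2*, a mesenchymal ligand of the lung, was at 2061 ± 472 and 2122 ± 28.6 (0.07, limma adjusted p = 0.866). Its close relative *Wnt2b* was at 704 ± 47.1 and 813 ± 38.5 (0.21, limma adjusted p = 0.205), and *Wnt11* at 899 ± 50.4 and 1006 ± 15 (0.16, limma adjusted p = 0.234). *Wnt5a* had values of 916, 441 and 1570 in the controls and 1181, 514 and 952 in the mutants, so its log2 difference of -0.05 (limma adjusted p = 0.974) stood against a spread of more than 3-fold among controls. As for *Lgr4* and *Lgr5*, control pool 2 was the lowest control pool and control pool 3 the highest. Mutant pool 2 was also the lowest mutant pool for *Wnt5a*, *Lgr4* and *Lgr5*.

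Receptors and inhibitors of the pathway held 0 genes past the threshold by limma and edgeR. Of 15 receptor genes, 0 had an unadjusted p under 0.05 and DESeq2 called 0. The co-receptor genes *Lrp5* and *Lrp6* had log2 differences of 0.04 and -0.05 (limma adjusted p = 0.724 and 0.727). Of 14 genes tested of a list of 15, which holds secreted inhibitors and the membrane receptors of DKK proteins, *Kremen1* and *Kremen2*, 4 had an unadjusted p under 0.05, all with lower values in mutant pools (*Dkk1*, *Sostdc1*, *Notum* and *Kremen1*), and DESeq2 called *Dkk1* and *Sostdc1*. Limma also called both when control pool 2 was left out. *Sfrp1*, the most abundant of them, had a log2 difference of 0.11 (limma adjusted p = 0.477, and 0.0281 without control pool 3) and *Wif1* one of 0.27 (0.637). Among 16 genes of the beta-catenin cascade, 2 had an unadjusted p under 0.05, both with higher values in mutant pools (*Tcf7l1* and *Bcl9l*), and 0 passed by limma, edgeR or DESeq2. *Ctnnb1*, which encodes beta-catenin, had a log2 difference of -0.02 (limma adjusted p = 0.868). The 2 genes for Wnt secretion held 0 past the threshold by all 3 tools and 1 with a lower value at an unadjusted p under 0.05, *Porcn*.

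Proteoglycans and other partners of R-spondins or LGR receptors, a list that includes *Iqgap1*, an intracellular scaffold protein that binds LGR4, had lower values for 8 of 9 genes, with a median log2 difference of -0.06, and all 9 were higher when scaled to epithelium markers. By limma and edgeR 0 passed the threshold, and 1, *Iqgap1*, did by DESeq2. Without control pool 3, limma called *Iqgap1* and *Sdc3*. At an unadjusted p under 0.05, *Sdc3* was higher and *Sdc4*, *Gpc1* and *Iqgap1* were lower. *Sdc4*, a syndecan that binds R-spondin 3, was at 491 ± 28.7 in control and 426 ± 33.8 in mutant pools (SD, n = 3; log2 difference -0.21, limma adjusted p = 0.303), with no overlap. *Gpc3*, the most abundant of the list, had a log2 difference of -0.03 (limma adjusted p = 0.806).

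**Figure D4:**
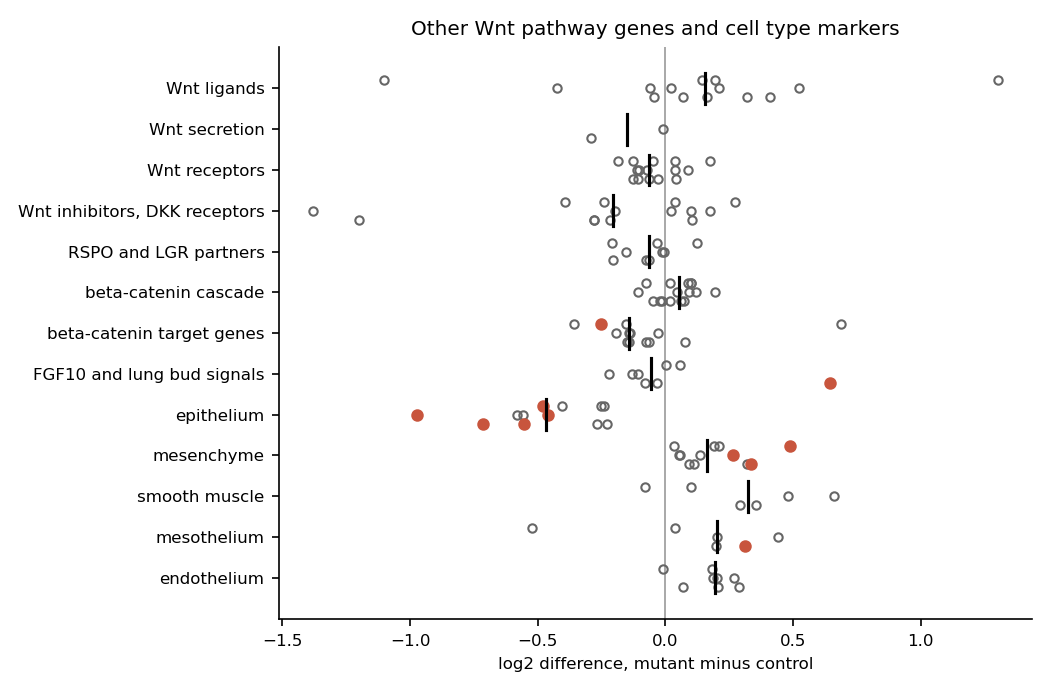
Log2 differences, mutant minus control, of the tested genes of 8 pathway lists and 5 marker lists. Each circle is a gene, red where the limma adjusted p is under 0.05, and the black bar is the median of the list. The epithelium markers lie left of 0 (median -0.47) and the mesenchyme markers right of it (0.16), while the Wnt lists, of which *Ccnd1* is the red point, have medians between -0.21 and 0.15.

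*Fgf10*, the mesenchymal growth factor that draws out lung buds, was the 1 gene of the 8 bud signals that passed the threshold by limma and by edgeR. DESeq2, and limma without control pool 3, called it and also *Fgfr2*, which was lower. Its normalized counts were 603, 611 and 493 in the controls and 844, 978 and 841 in the mutants, and it rose from 569 ± 65.8 to 888 ± 78.5 (SD, n = 3; log2 difference 0.64, limma adjusted p = 0.0322). Over the alternatives its adjusted p ranged from 4.57e-07 with DESeq2 to 0.226 without trend, and it also missed the threshold with no filter (0.209) and without control pool 1 or any 1 of the mutant pools (0.109 to 0.192). The list held 2 genes with lower values at an unadjusted p under 0.05, *Fgfr2* and *Ptch1*. The log2 ratio of *Rspo2* to *Fgf10* was 1.22, 1.20 and 1.48 in the controls and 1.15, 1.04 and 1.14 in the mutants.

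The markers that passed the threshold in the epithelium list were *Cdh1* (log2 difference -0.97, limma adjusted p = 0.00728), which encodes E-cadherin, *Cldn6* (-0.71, 0.0119), *Krt8* (-0.55, 0.0128), *Cldn4* (-0.48, 0.0263) and *Krt18* (-0.46, 0.0263). In the mesenchyme list they were the collagen genes *Col1a1* (0.49, limma adjusted p = 0.0125), *Col1a2* (0.34, 0.0128) and *Col3a1* (0.26, 0.0470), and in the mesothelium list *Wt1* (0.31, 0.0496). Each of these 9 markers missed the threshold without control pool 1, without mutant pool 3, without trend and with no filter. The summed normalized counts of other lists were 6832 to 8477 in control and 8960 to 9973 in mutant pools for smooth muscle (*Acta2* the most abundant), 3947 to 4588 and 4720 to 5223 for mesothelium (*Upk3b*), and 12773 to 14581 and 14924 to 15465 for endothelium (*Cdh5*). Neural genes (*Sox10*) summed to 1875 to 2026 and 1538 to 1964, and heart muscle genes (*Myl7*) to 560 to 649 and 458 to 504. Stomach and liver genes (*Alb*) summed to 361 to 544 and 333 to 404, and those of blood and macrophages (*Hbb-y*), of which *Hba-a1* was at 0 in every library, to 54877 to 59363 and 52048 to 64958.

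Of 11457 genes with a mean normalized count of at least 100, the 5 with the pattern most like *Rspo2* over the 6 libraries were *Arap3* (Pearson's r 0.9959), *Meis1* (0.994), *Fkbp14* (0.9911), *Aebp1* (0.9881) and *Skida1* (0.9862). The normalized counts of *Arap3* were 1325, 1336 and 1333 in the controls and 1553, 1608 and 1568 in the mutants. Such r values come mainly from the gap between the groups, which these genes share with *Rspo2*, and 106 of the ranked genes had an r above 0.95.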

How the data were processed

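RNA from pools of 3 or 4 whole lungs was sequenced on the BGISEQ platform. The submitters' processing notes name Trim Galore, HISAT2, featureCounts, DESeq2 and mm10, without versions. Annotation, read length and strand setting are not given in the sources used here. The authors deposited 1 table, whose signal values are normalized counts. Its log2 fold changes, test statistic (a score) and p-values are the authors' own comparison in the deposited table and were not used. Dates stand in place of 27 gene symbols.

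Control and mutant pools were compared with limma 3.58.1 in R 4.3.3 (lmFit, eBayes with trend, no block) on log2(normalized count + 1) for genes at 1 or more in 3 or more libraries. The adjustment was that of Benjamini and Hochberg over all 17168 genes, with a threshold of 0.05. In each of the 6 libraries every value (100%) was a multiple of 1 step, within 0.1 read, which gave the reads used for edgeR 4.0.16 and DESeq2 1.42.0 as alternatives. Further alternatives were no trend, other scalings and filters, a pseudocount of 0.1, a replicate block, the longest transcript as length, and leaving out each pool. The scripts were tested on simulated data. The paper describes littermate controls and a combining of mutants from different litters. It does not say which litters each pool held, so p-values measure the spread between these pools. The spread from counting covers counting error only.

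The 9 genes, the lists and the naming rule were chosen with earlier results of these data known. Named are the 9 genes, *Rptor*, up to 3 genes past the threshold per pathway list, 19 fixed pathway genes, the markers past the threshold or most abundant, and the 5 genes most like *Rspo2*. Other listed genes behind counts of 5 or fewer were named after their values were seen. Positions and sequences are those of GENCODE M21 (GRCm38, the build mm10).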

Additional observations from a re-analysis of the deposited data

How the results depend on the processing

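Over all alternatives the log2 differences of the 9 genes moved by less than the spread between pools in 129 cases and by more in 14, all 14 with libraries scaled to marker genes. Many of the 129 were fixed by the settings, so this count does not measure stability. Without trend, with other filters or with a replicate block a difference stays the same. Leaving out 1 pool cannot move it by as much as that spread. With values of at least 10 in every library *Rspo4* was not kept and has no value. Genes past the adjusted threshold, 86 as reported, numbered 8 with limma without trend, 18 with no filter, 277 with DESeq2, 11852 when scaled to epithelium and 3387 when scaled to mesenchyme markers, and from 1 (without control pool 1 or mutant pool 3) to 468 (without control pool 3) when a pool was left out. Of the 9 genes, 1 passed as reported, 0 without trend or with no filter, 6 and 4 when scaled to epithelium and mesenchyme markers, and 0 to 2 when a pool was left out, with 0 without control pool 1 or mutant pool 3 and 2 without control pool 3. Of the other listed pathway genes, 2 passed as reported, 0 without trend or with no filter, 7 with DESeq2, 70 and 37 by the marker scalings, and 0 to 9 when a pool was left out. Scaled to their own lists, 6 epithelium genes were lower and 5 mesenchyme genes were higher. Such a scaling sets the mean log2 difference of its own list to 0, so genes on both sides of 0 follow from it. The cause of these changes was not tested, apart from the marker scalings, which move every gene by the same amount.

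Per kb of the longest transcript, *Rspo2* made up 36.7% and 42.7% of R-spondins in control and mutant pools, *Lgr4* 72.2% and 75.1% of LGR genes, and *Znrf3* 52.7% and 54.8% of the ligases. Scaling to epithelium markers turned the log2 differences of *Rptor* (0.41), *Axin2* (0.33), *Lef1* (0.28), *Nkd1* (0.40), *Sp5* (0.12), *Tcf7* (0.32), *Apcdd1* (0.33), *Wnt5a* (0.43), *Wnt7b* (0.053), *Lrp6* (0.43), *Ctnnb1* (0.45), *Sdc4* (0.27), *Gpc3* (0.44), *Ccnd1* (0.22) and *Krt18* (0.016) positive, and scaling to mesenchyme markers turned those of *Wnt2* (-0.12), *Wnt11* (-0.026), *Lrp5* (-0.15) and *Sfrp1* (-0.086) negative. Leaving out a pool turned the sign of *Wnt2* (from -0.13 without control pool 3 to 0.21), *Wnt5a* (from -0.53 to 0.39 without control pool 3, and above 0 without control pool 1 or mutant pool 2), *Lrp6* (from -0.097 to 0.0024 without control pool 3), *Ctnnb1* (from -0.063 to 0.0075 without control pool 3) and *Gpc3* (from -0.066 to 0.012 without mutant pool 2).

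Control and mutant pools with the same number hold different embryos, and whether they share litters is not given. Their deviations from the group means correlated at -0.03, 0.17 and 0.06 over 13951 genes. Pools of unlike number correlated at -0.168 to 0.133. These values do not settle whether pools share litters, and the numbers were not taken as pairs. With a replicate block 71 genes passed, 58 of them among the 86. Of the named genes *Ccnd1* and *Wt1* did not pass (limma adjusted p = 0.0569 and 0.0696), and *Wnt7b* passed (0.0487). Depth limits *Rspo4* most, at 8 to 20 reads per library.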
